A study of Mus musculus with 9 samples.

Results

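RNA-seq of bleomycin-injected mouse skin that was treated with exosomes (EXO, 3 libraries) was compared with that of bleomycin-injected skin left without exosomes (BLM, 3 libraries), out of 9 libraries in the series. The members were the 6 libraries named EXO and BLM by their titles, and all 13279 of 55382 genes with at least 1 FPKM in 3 or more of the 6 libraries were tested. FPKM counts the fragments of a gene relative to the length of its transcript and the size of the library. Both groups carry the same model. Bleomycin, an anticancer drug that breaks DNA and scars tissue, was given to female C57BL/6 mice as 100 µL of a 1 mg/mL solution under the shaved skin of the back, once daily for 28 days. The EXO group then received 15 µg of exosomes in 100 µL, vesicles shed by bone marrow mesenchymal stem cells (BMSCs), and the series design gives a treatment period of 7 days, while the study's histology was taken later. The sample labels call the treatment of BLM none, while the series design and the methods give PBS. The third group, NORMAL (3 libraries), was skin given PBS (buffered saline) and no bleomycin, and it entered the fit only to help estimate the spread. No source states the age of the model mice, the stage of the hair cycle or whether each library came from a separate mouse, so the p-values measure the spread between these libraries, which may be technical in part. The libraries are called EXO1 to EXO3 and BLM1 to BLM3 by their title numbers, and 3 stands for the title with no number.

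The libraries differed in makeup, and this touches most results below. Mitochondrially encoded transcripts took 18.7% to 34.4% of FPKM in EXO and 27.8% to 50.9% in BLM, with the highest share of each group in the library numbered 2. Protein-coding transcripts of the nucleus took 35.1% to 59.8% in EXO but 15.0% to 45.4% in BLM, and skeletal muscle transcripts 1.87% to 13.1% in EXO and 1.54% to 2.71% in BLM. Each of these shares gave p = 0.2 (exact permutation test, two-sided, n = 3 per group, where 0.10 is the smallest p possible). The number of genes at 1 FPKM or more ranged from 11238 to 13418 per library. The median log2 difference of all genes tested was 0.23, and it was 0.01 after median-ratio scaling, which sets each library to the median gene, 0.03 after quantile normalization and 0.48 after rescaling to the same total. Differences are therefore to be read against 0.23. Genes of keratinocytes (Krt5, Krt14) and fibroblasts (Col1a1, Col1a2) were present in all 6 libraries. In bulk tissue, fewer cells of a type and less RNA per cell cannot be told apart.

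The hair follicle passes through growth, regression and rest. During growth, dividing matrix cells at its base build the hair shaft from keratins and keratin-associated proteins, the inner root sheath guides the shaft, melanocytes hand over pigment, and Sonic hedgehog (Shh) from the matrix sustains the proliferation. In rest this lower part is gone, and stem cells remain in the bulge. Vesicles from mesenchymal stem cells carry RNA and proteins and are studied in skin fibrosis. The comparison asked what exosome treatment changed in the fibrotic skin.

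Genes of the growing follicle lay lower in EXO than in BLM. In the fit of all 9 libraries without a block, limma called 3 genes (Benjamini-Hochberg adjusted p below 0.05), Shh, Krtap19-4 and Krtap19-1, which fell. They were 0.0226% of all genes tested, with 0% called higher, and other fits described below called more. All EXO libraries held under 1 FPKM of these 3 genes, so they passed the filter only through BLM and their direction was fixed by it. Inner root sheath keratins, pigment genes and mitotic genes lay lower as groups, whereas keratins of the basal epidermis and bulge, clock output genes and Atp2b4 lay higher. The scatter of group means shows both sides.

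**Figure D1:**
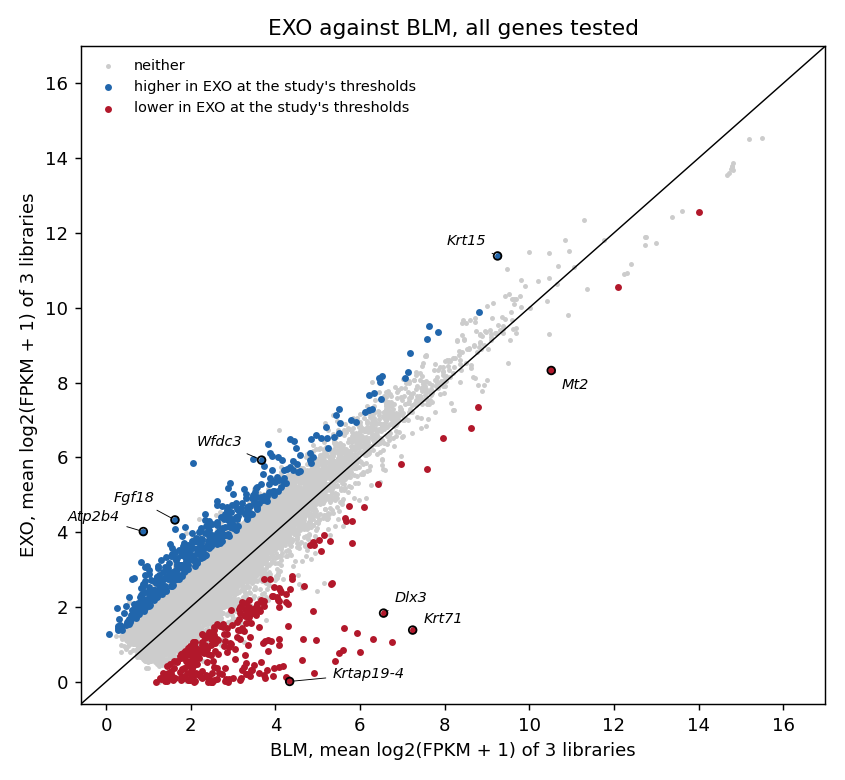
Mean log2(FPKM + 1) of the 3 BLM libraries (horizontal axis) and of the 3 EXO libraries (vertical axis) for the 13279 genes tested, with the line of equality. Blue and red points passed the study's thresholds, 429 higher and 304 lower, and the open circles mark named genes. Krt71 and Dlx3 lie far below the line and Atp2b4 far above it.

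Krtap19-4 encodes a glycine and tyrosine rich keratin-associated protein of the hair shaft. It stood at 25.0, 20.6 and 13.7 FPKM in BLM1 to BLM3 and at 0, 0 and 0.02 FPKM in EXO1 to EXO3. Every BLM library lay above every EXO library, and NORMAL held 0.04, 0 and 1.93 FPKM. Krtap19-4 fell by 4.33 in log2(FPKM + 1), a scale on which low genes change less than in FPKM itself (SE 0.45, limma, adjusted p = 0.00871). Its neighbour Krtap19-1 was listed at 0 in all 3 EXO libraries and at 5.13, 2.71 and 6.95 FPKM in BLM, with 0, 0 and 0.65 FPKM in NORMAL. The adjusted p of Krtap19-1 was 0.0464 (limma), and no fold is given against a group at 0. Krtap19-4 (ENSMUSG00000043982, chr16:88884786-88885089) and Krtap19-1 (ENSMUSG00000060691, chr16:88868917-88869411) are protein-coding in GENCODE M21 on GRCm38. Close copies of both exist in the same cluster, and a fragment may have been assigned to the wrong one, so their levels are uncertain. 

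Shh, the ligand that drives growth of the follicle epithelium, stood at 14.3, 5.74 and 17.2 FPKM in BLM1 to BLM3 and at 0.29, 0 and 0.26 FPKM in EXO1 to EXO3. The groups did not overlap, and NORMAL held 0.15, 0 and 0.22 FPKM, at the level of EXO. Shh (ENSMUSG00000002633, chr5:28456815-28467256) fell by 3.39 on the log2 scale (SE 0.39, limma, adjusted p = 0.0136). Leaving out EXO1, EXO2 or EXO3 ended the call of Shh, with adjusted p of 0.0875, 0.105 and 0.0711 (limma). The same libraries ended that of Krtap19-4 (0.0797, 0.0625 and 0.0573) and of Krtap19-1 (0.233, 0.201 and 0.173), and NORMAL1 and NORMAL2 that of Krtap19-1 (0.0999 and 0.0684). Without any 1 BLM library the 3 genes no longer reached the filter and were not tested.

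The promoters of the called Krtap genes are shown because both genes went from clear expression to about 0. They come from RefSeq on GRCm38.p6, from 250 bases before to 50 after the start. The capitals mark TATAAA or TATATAA, the TATA box letters, searched on both strands, and this search was chosen after the values were seen. Krtap19-4 lies at chr16:88885040-88885339, minus strand, and Krtap19-1 at chr16:88869361-88869660, minus strand.
Krtap19-4: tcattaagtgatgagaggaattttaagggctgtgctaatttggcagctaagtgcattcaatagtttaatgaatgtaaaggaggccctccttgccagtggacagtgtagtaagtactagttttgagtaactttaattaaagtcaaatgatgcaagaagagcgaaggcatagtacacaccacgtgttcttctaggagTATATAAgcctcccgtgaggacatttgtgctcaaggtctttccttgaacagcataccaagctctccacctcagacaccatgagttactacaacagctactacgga
Krtap19-1: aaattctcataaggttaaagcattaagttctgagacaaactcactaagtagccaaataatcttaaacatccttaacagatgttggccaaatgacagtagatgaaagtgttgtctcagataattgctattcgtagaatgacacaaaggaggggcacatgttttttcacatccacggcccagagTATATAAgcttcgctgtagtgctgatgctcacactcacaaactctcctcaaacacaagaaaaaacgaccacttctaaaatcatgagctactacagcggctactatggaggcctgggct
The match stood at position -55 in Krtap19-4 and -68 in Krtap19-1. Of the keratin-associated protein promoters in the RefSeq table, 50 of 51 held such letters, against 15.7% of 27025 promoters of the same length. A match is a description and not a bound site.

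The other keratin-associated proteins, which cross-link the keratin filaments of the shaft, stood in the same order. Of 58 in the table, 37 passed the filter, and 32 of these passed only through BLM, with all EXO libraries under 1 FPKM, so that they had to lie lower. The 5 that reached 1 FPKM in an EXO library were Krtap17-1, Krtap19-9a, Krtap3-1, Krtap3-2 and Krtap7-1. Krtap7-1, the highest of them, stood at 56.6, 15.8 and 79.0 FPKM in BLM1 to BLM3 and at 1.22, 0 and 0.46 FPKM in EXO1 to EXO3. Krtap8-1 stood at 63.4, 28.2 and 58.2 FPKM in BLM and 0.97, 0.59 and 0.85 FPKM in EXO. Krtap8-1 is one of the 32. In both genes the groups did not overlap, and neither passed over all genes (limma, adjusted p = 0.374 and 0.322). In NORMAL Krtap8-1 stood at 0.14, 0.73 and 104 FPKM. The NORMAL3 value is above those of BLM, and NORMAL3 enters the spread of the 9-library fit. With only the 6 EXO and BLM libraries, limma gave adjusted p = 0.000727 for Krtap7-1.

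Genes of the inner root sheath, the sleeve that moulds the growing hair, lay far lower. Of 12 listed, 9 were tested and 1 passed only through BLM. Lower values were found for 8 of the 9, against 30.4% of all genes tested, with a median of -4.05. Krt71, a keratin of all sheath layers, stood at 257, 52.4 and 252 FPKM in BLM1 to BLM3 and at 3.48, 0.97 and 1.01 FPKM in EXO1 to EXO3 (log2 difference -5.86, SE 1.17, limma, adjusted p = 0.162). Krt25, its acidic partner, stood at 154, 35.1 and 226 FPKM against 2.70, 0.40 and 0.75 FPKM (-5.70, SE 1.16, adjusted p = 0.174). BLM2 was the lowest BLM library in both and still lay above every EXO library. Krt73 stood at 108, 20.7 and 111 FPKM in BLM and 1.66, 0.26 and 0.54 FPKM in EXO. Tchh, which encodes trichohyalin, the protein that hardens the sheath, stood at 44.9, 7.74 and 39.2 FPKM against 1.18, 1.22 and 1.19 FPKM. In NORMAL Krt71 held 0.33, 0.49 and 49.7 FPKM. Gata3, a transcription factor also used outside the sheath, was the exception, at 57.3, 122 and 67.5 FPKM in EXO and 92.5, 32.1 and 54.3 FPKM in BLM, with overlapping groups.

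Among keratins of the hair cortex and cuticle, 5 of 15 were tested. Krt35, an early cortex keratin, stood at 90.9, 9.62 and 94.9 FPKM in BLM and 1.42, 0.09 and 0.85 FPKM in EXO. Krt36 stood at 21.6, 2.38 and 26.1 FPKM against 0.18, 1.05 and 0.21 FPKM, again with no overlap. Krt32, a cuticle keratin, went the other way, at 7.80, 9.23 and 11.4 FPKM in EXO and 5.53, 2.72 and 7.19 FPKM in BLM, so that the list was not uniform.

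**Figure D2:**
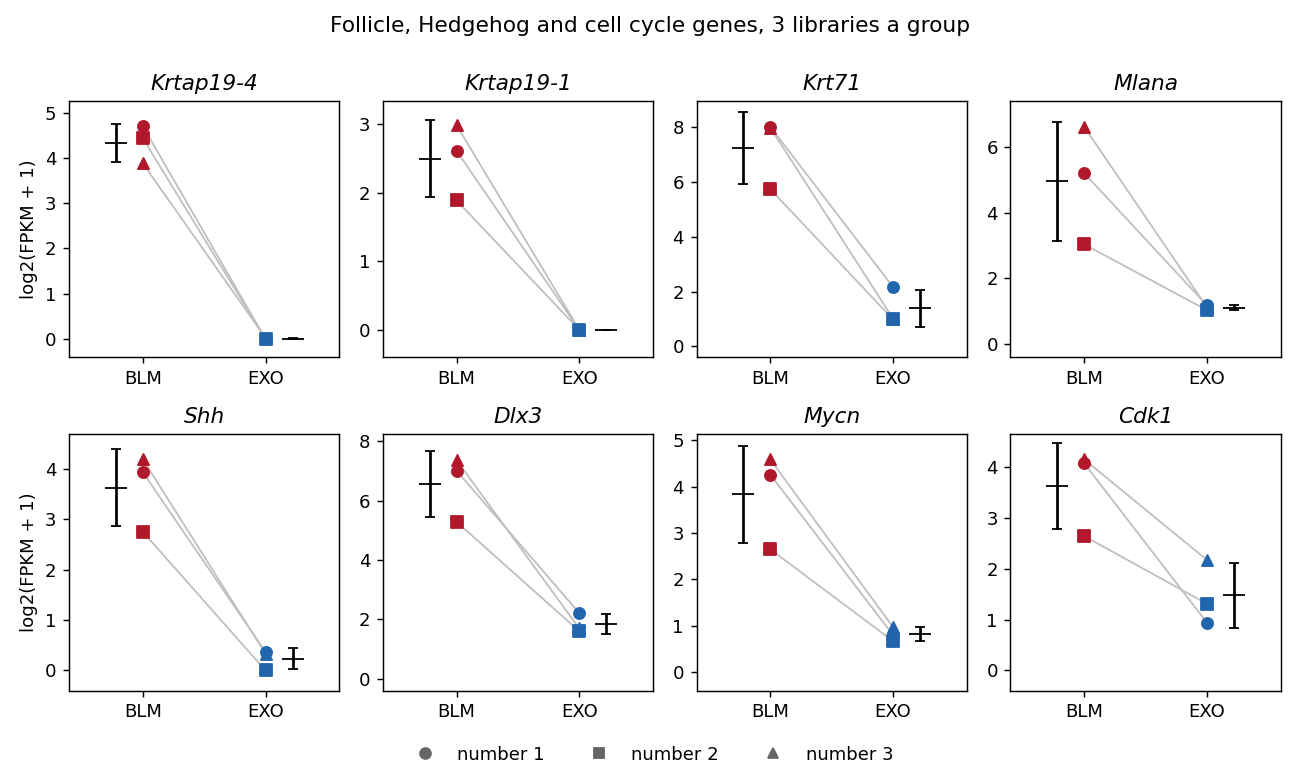
log2(FPKM + 1) of 8 genes that lay lower in EXO, with 1 point per library, grey lines joining libraries of the same number, and bars for the mean and SD of 3 libraries. The highest EXO library lies below the lowest BLM library in each panel, and BLM2 (square) is the lowest BLM library in all but Krtap19-4.

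Transcription factors and signals of follicle growth were measured for 20 of 24 genes, of which 6 passed only through BLM. Lower values were found for 15, with a median of -1.25, and 9 passed the study's thresholds as lower, a log2 difference beyond 1 with an unadjusted p below 0.05, which 2.29% of all genes tested did. Dlx3, a homeobox factor of the hair matrix, stood at 128, 38.2 and 164 FPKM in BLM1 to BLM3 and at 3.64, 2.03 and 2.24 FPKM in EXO1 to EXO3 (log2 difference -4.72, SE 1.02, limma, adjusted p = 0.188, and 0.000652 with the 6 libraries alone). Its BLM and EXO values lay in separate ranges. Dlx1, one of the 6 let in by BLM alone, stood at 1.89, 1.28 and 1.66 FPKM against 0.18, 0.04 and 0.08 FPKM. Wnt10b, the Wnt ligand of growing follicles, stood at 24.4, 7.31 and 22.8 FPKM in BLM and 2.69, 3.77 and 4.06 FPKM in EXO. Hoxc13, which controls hair keratin genes, stood at 34.8, 9.25 and 32.4 FPKM against 6.30, 5.41 and 7.32 FPKM. Bmp2, a ligand of the BMP family with high levels in resting skin, was the member that passed the study's thresholds as higher, at 12.1, 14.7 and 17.9 FPKM in EXO and 5.11, 3.07 and 4.29 FPKM in BLM (3.23% of all genes tested passed as higher).

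In the Hedgehog pathway, 13 of 17 genes were tested, 10 lay lower (30.4% of all genes tested did), and 4 passed the study's thresholds as lower (2.29% of all) and 0 as higher. Shh, Ptch1 and Gli1 were among the 4. Gli1, the transcription factor that reports pathway activity, stood at 30.5, 7.91 and 32.1 FPKM in BLM1 to BLM3 and at 4.47, 4.16 and 9.60 FPKM in EXO1 to EXO3, and EXO3 lay above BLM2. Ptch1, a receptor and target of the pathway, stood at 6.47, 1.75 and 4.53 FPKM in BLM and 1.05, 1.56 and 1.70 FPKM in EXO, in ranges that lay side by side without overlap. Smo, the signal transducer, showed no such order, at 14.1, 4.50 and 18.7 FPKM in BLM and 7.99, 10.5 and 17.2 FPKM in EXO. Gas1, a coreceptor, lay higher, at 17.6, 24.9 and 39.0 FPKM in EXO and 8.24, 4.45 and 8.25 FPKM in BLM (limma, adjusted p = 0.76). The median of the list was -0.30, and it was -1.30, 0.09 and -0.55 in pairs 1, 2 and 3, so pair 2 did not share the direction.

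Mycn, a growth-promoting transcription factor, fell when the title number of the libraries was a block in the fit (adjusted p = 0.0229, limma, and 0.0598 without the block). It stood at 18.2, 5.28 and 23.0 FPKM in BLM1 to BLM3 and at 0.74, 0.59 and 0.96 FPKM in EXO1 to EXO3, and so it passed the filter only through BLM and had to lie lower. Cldn10, a claudin of tight junctions, stood at 12.5, 4.87 and 12.5 FPKM against 0.94, 0.67 and 1.34 FPKM and fell with the block (0.0197). Klk13, a secreted protease, stood at 3.57, 2.32 and 5.26 FPKM against 0.02, 0.09 and 0.32 FPKM and likewise fell with it (0.0293), again let in by BLM alone. With the block 16 genes (0.12%) were called lower and 3 (0.0226%) higher. Of the 16, 11 held under 1 FPKM in every EXO library and had passed the filter only through BLM, so the count gives no support for a direction. The lower calls also included Cacng4, Pif1, the histone gene Hist1h2ao, the pigment genes Mlana and Tyrp1, and the less known Gm10318, Gm27785, Gm28018 and 2700099C18Rik, beside Shh, Krtap19-1 and Krtap19-4.

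Pigment genes of melanocytes were tested for 7 of 15. Mlana, a melanosome protein, stood at 36.1, 7.23 and 97.8 FPKM in BLM1 to BLM3 and at 1.27, 1.05 and 1.18 FPKM in EXO1 to EXO3, and fell with the block (log2 difference -3.85, SE 0.72, limma, adjusted p = 0.12 without the block and 0.048 with it). Tyrp1, an enzyme of melanin synthesis, stood at 12.6, 3.02 and 5.31 FPKM against 0.20, 0 and 0.84 FPKM (adjusted p = 0.10 and 0.0492), and it had passed the filter only through BLM. Dct, the enzyme one step before it, stood at 15.8, 3.41 and 29.9 FPKM against 0.76, 0.53 and 2.16 FPKM. In these genes no EXO library reached a BLM library. Lower values were found for 6 of the 7, Tyrp1 included, with a median of -2.20.

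Mitotic genes lay lower across the list. Of 31 tested of 32, 29 lay lower (30.4% of all genes tested did). The study's thresholds were passed by 19 as lower (2.29% of all) and 0 as higher, and after median-ratio scaling by 26 as lower (3.46% of all). Groups lay lower without overlap for 7 (2.48% of all genes tested), and for 24 after median-ratio scaling (10.4% of all). The median was -1.22, and -1.94, -0.67 and -1.13 in pairs 1, 2 and 3. Cdk1, the kinase that starts mitosis, stood at 15.9, 5.25 and 16.8 FPKM in BLM1 to BLM3 and at 0.92, 1.48 and 3.51 FPKM in EXO1 to EXO3 (log2 difference -2.15, SE 0.49, limma, adjusted p = 0.205). Mki67, the marker of dividing cells, stood at 32.5, 8.40 and 21.0 FPKM against 2.58, 2.44 and 5.81 FPKM. The groups were separate in both, with BLM2 nearest to EXO. Ndc80, a kinetochore protein, stood at 4.58, 2.26 and 2.68 FPKM in BLM and 0.25, 0.32 and 0.47 FPKM in EXO (adjusted p = 0.10), and it alone of the list had passed the filter only through BLM, which fixed its direction. Cenpe, a kinetochore motor, stood at 4.95, 1.49 and 3.81 FPKM against 0.30, 0.38 and 1.02 FPKM, in separate ranges. Cdc20, an activator of the anaphase-promoting complex, stood at 35.1, 8.54 and 48.3 FPKM against 2.69, 2.66 and 14.5 FPKM, with EXO3 above BLM2. The exceptions in direction were Pttg1 and Bub3. Pttg1, which encodes securin, stood at 40.6, 18.8 and 22.9 FPKM in EXO and 17.4, 14.7 and 17.2 FPKM in BLM.

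The 29 tested genes of DNA replication and S phase showed a smaller shift, with 26 lower, a median of -0.45 and 3 past the study's thresholds as lower (2.29% of all genes tested). After median-ratio scaling 7 passed (3.46% of all). The 3 were E2f2, Rrm2 and Uhrf1. Uhrf1, which maintains DNA methylation at replication, stood at 23.5, 8.93 and 28.0 FPKM in BLM and 3.83, 1.52 and 10.1 FPKM in EXO, with EXO3 above BLM2. Pcna, the sliding clamp, stood at 40.7, 18.1 and 53.5 FPKM against 17.1, 27.1 and 39.2 FPKM, in overlapping ranges. In pair 2 the S phase median was 0.23, against -1.21 and -0.56 in pairs 1 and 3.

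The promoters of cell cycle genes are printed because mitotic genes lay lower together. They were chosen among the cell cycle and Hedgehog genes with the smallest p that have a promoter in the RefSeq table (GRCm38.p6), namely Ndc80, Cdk1, Mki67 and Cenpe. Shh is named only. The capitals mark TTTGAA (the cell-cycle homology motif), CCAAT (the CCAAT box), TTTCCCGC or TTTGGCGC (E2F) and GACCACCCA (Gli), each searched on both strands. The windows are chr17:71526808-71527107, minus strand for Ndc80, chr10:69352863-69353162, minus strand for Cdk1, chr7:135716330-135716629, minus strand for Mki67 and chr3:135212313-135212612, plus strand for Cenpe.
Ndc80: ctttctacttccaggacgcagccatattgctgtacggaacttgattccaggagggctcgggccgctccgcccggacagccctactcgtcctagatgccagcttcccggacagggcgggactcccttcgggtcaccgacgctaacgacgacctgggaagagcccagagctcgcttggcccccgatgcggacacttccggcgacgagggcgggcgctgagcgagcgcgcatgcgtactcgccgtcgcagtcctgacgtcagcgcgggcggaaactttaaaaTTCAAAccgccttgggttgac
Cdk1: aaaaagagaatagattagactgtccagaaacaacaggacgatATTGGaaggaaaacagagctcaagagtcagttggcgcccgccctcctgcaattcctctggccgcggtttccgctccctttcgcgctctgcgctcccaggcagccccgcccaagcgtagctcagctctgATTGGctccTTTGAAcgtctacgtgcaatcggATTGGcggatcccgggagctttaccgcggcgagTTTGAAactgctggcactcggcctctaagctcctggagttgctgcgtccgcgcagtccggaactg
Mki67: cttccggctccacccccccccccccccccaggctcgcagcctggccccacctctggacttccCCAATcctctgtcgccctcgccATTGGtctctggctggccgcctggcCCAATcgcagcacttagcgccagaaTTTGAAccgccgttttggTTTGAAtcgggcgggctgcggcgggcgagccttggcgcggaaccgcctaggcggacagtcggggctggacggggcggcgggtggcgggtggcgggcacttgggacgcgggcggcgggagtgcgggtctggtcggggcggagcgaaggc
Cenpe: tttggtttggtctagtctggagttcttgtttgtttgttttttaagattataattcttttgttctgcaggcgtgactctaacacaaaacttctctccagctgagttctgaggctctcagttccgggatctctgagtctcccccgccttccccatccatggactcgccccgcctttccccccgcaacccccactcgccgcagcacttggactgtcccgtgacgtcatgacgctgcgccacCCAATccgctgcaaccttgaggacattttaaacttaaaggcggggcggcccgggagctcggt
Cdk1 and Mki67 each held both the CCAAT box and the cell-cycle homology motif, while Ndc80 held TTTGAA alone and Cenpe CCAAT alone. Of 26 mitosis promoters in the table, 18 (69.2%) held TTTGAA and 19 (73.1%) CCAAT, against 18.1% and 37.9% of 27025 promoters. Of 26 S phase promoters, 10 (38.5%) held an E2F motif, against 1.63% of all, and 0 of the mitosis promoters did. The Gli letters were in 0 of 13 Hedgehog promoters and in 0.244% of all. Such matches describe letters and say nothing of binding.

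On the other side, markers of the bulge and of the resting stage lay higher for 17 of 21 genes tested (69.6% of all genes tested lay higher), with a median of 0.55, and 6 passed the study's thresholds as higher (3.23% of all) and 0 as lower. In pairs 1, 2 and 3 the median was -0.18, 1.35 and 0.72, so pair 1 went against the other two. Krt15, the keratin of bulge and basal cells, stood at 2207, 2433 and 3559 FPKM in EXO1 to EXO3 and at 833, 291 and 928 FPKM in BLM1 to BLM3 (log2 difference 2.13, SE 0.70, limma, adjusted p = 0.458). Postn, which encodes periostin, a matrix protein of dermis and bulge, stood at 47.2, 60.6 and 94.9 FPKM against 17.2, 7.76 and 21.2 FPKM. Every EXO library lay above every BLM library in both. Fgf18, a growth factor that holds the follicle in rest, stood at 20.1, 9.18 and 36.7 FPKM in EXO and 2.79, 0.88 and 3.15 FPKM in BLM, and it rose with the block (log2 difference 2.70, SE 0.65, limma, adjusted p = 0.245 without the block and 0.0197 with it). NORMAL held 10.8, 2.16 and 14.1 FPKM of Fgf18, with NORMAL1 and NORMAL3 in the range of EXO and NORMAL2 in that of BLM.

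Keratins of the epidermis lay higher for 8 of 9 genes tested, with a median of 1.51, and 3 had groups that did not overlap (11.6% of all genes tested in that direction). Krt5 stood at 2382, 2257 and 4549 FPKM in EXO and 1519, 408 and 1719 FPKM in BLM. Krt14, its partner in basal cells, stood at 1813, 1939 and 2690 FPKM against 1031, 297 and 1171 FPKM (limma, adjusted p = 0.735). The medians of pairs 1, 2 and 3 were 0.47, 2.70 and 1.20, so the shift was greatest in the pair with BLM2. Among barrier genes, Spink5, the inhibitor of skin kallikreins, stood at 72.6, 64.5 and 91.3 FPKM in EXO and 21.6, 16.4 and 27.4 FPKM in BLM. Cdsn, which encodes corneodesmosin of the cornified layer, stood at 83.1, 44.3 and 70.5 FPKM against 17.2, 9.42 and 23.7 FPKM. Both lay in separate ranges. Sprr1a, of the cornified envelope list, went the other way without overlap, at 7.12, 4.18 and 4.69 FPKM in EXO and 51.2, 21.9 and 53.4 FPKM in BLM (limma, adjusted p = 0.683, and 0.0125 with the 6 libraries alone). That list as a whole was split, with 12 of 19 higher and a median of 0.17 that turned to -0.09 after median-ratio scaling. The study's thresholds were passed by 3 members as higher (3.23% of all genes tested) and 1 as lower (2.29% of all).

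Several of the genes with the greatest difference in the higher direction were in no list. Atp2b4, a plasma membrane calcium pump (chr1:133699457-133801041), stood at 9.55, 15.1 and 24 FPKM in EXO1 to EXO3 and at 1.01, 0.46 and 1.13 FPKM in BLM1 to BLM3, with 0.51, 0.31 and 2.90 FPKM in NORMAL. It rose with the block (log2 difference 3.13, SE 0.49, limma, adjusted p = 0.0598 without the block and 0.0185 with it). Wfdc3, a WAP domain protein (chr2:164731180-164745931), stood at 69.7, 51.4 and 59.9 FPKM against 15.44, 10.03 and 10.50 FPKM and rose with the block as well (2.25, SE 0.39, adjusted p = 0.0912 and 0.0312), with 27.8, 15.4 and 27.8 FPKM in NORMAL. No EXO library overlapped a BLM library in these genes. Serpinb2, a plasminogen activator inhibitor, stood at 38.6, 72.2 and 115 FPKM in EXO and 17.5, 9.98 and 14.6 FPKM in BLM. Fcgbp, a mucin-like secreted protein, stood at 54.6, 54.0 and 79.0 FPKM against 17.01, 5.08 and 11.2 FPKM. Clca3a2 stood at 44.2, 116 and 102 FPKM against 20.3, 5.89 and 18.3 FPKM. The last 3 passed the study's thresholds but not the adjusted test (limma, adjusted p = 0.187, 0.193 and 0.242).

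**Figure D3:**
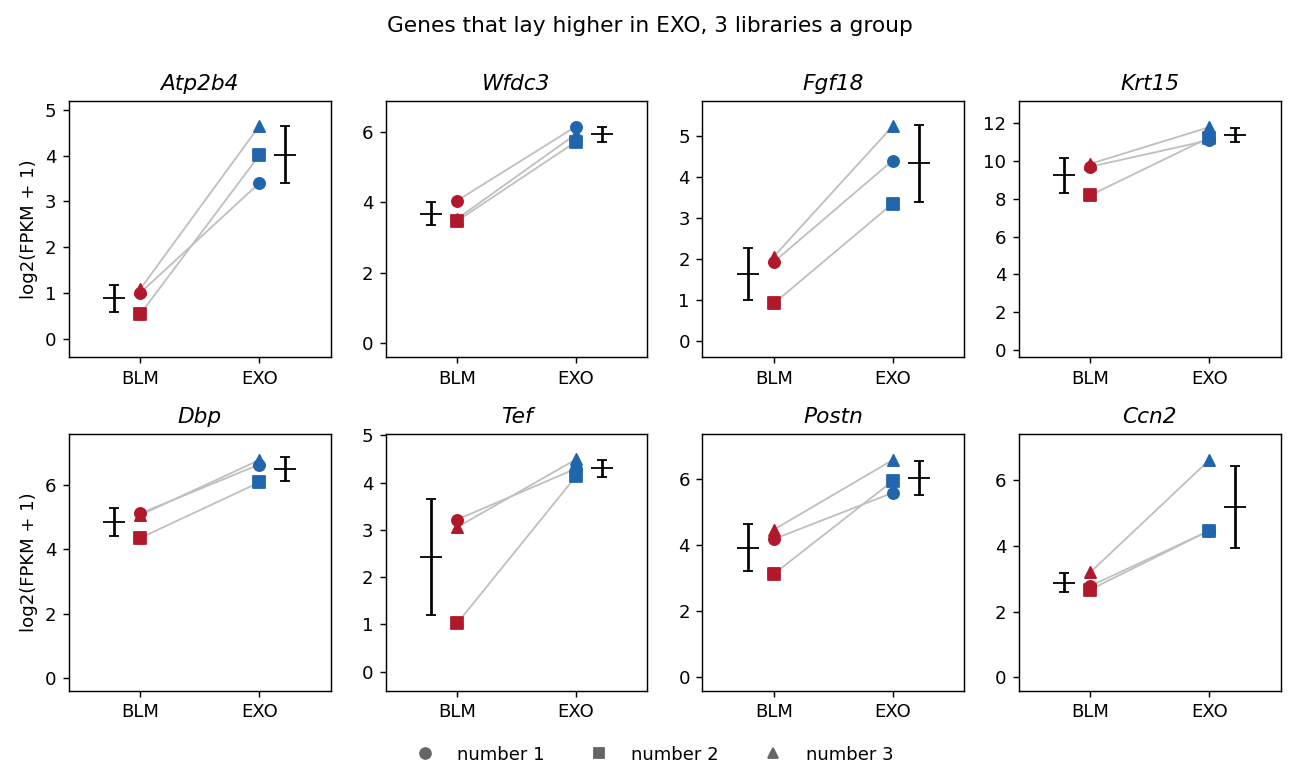
log2(FPKM + 1) of 8 genes that lay higher in EXO, with 1 point per library, grey lines joining libraries of the same number, and bars for the mean and SD of 3 libraries. All 3 EXO libraries lie above all 3 BLM libraries in each panel, and BLM2 (square) gives the low point of Tef at 1.03 FPKM.

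Genes of the circadian clock lay higher without exception among the 15 tested of 17, with a median of 1.15, and the medians of pairs 1, 2 and 3 were 0.72, 1.20 and 1.32. Of these, 8 passed the study's thresholds as higher (3.23% of all genes tested) and 0 as lower, and 4 as higher after median-ratio scaling (1.82% of all). The 8 included Cry2, Dbp, Hlf, Nr1d1, Nr1d2, Per3 and Tef. Dbp, a transcription factor driven by the clock, stood at 98.5, 66.6 and 108 FPKM in EXO1 to EXO3 and at 33.6, 19.4 and 32.5 FPKM in BLM1 to BLM3 (log2 difference 1.65, SE 0.40, limma, adjusted p = 0.252). Tef, its relative, stood at 18.7, 16.6 and 21.5 FPKM against 8.30, 1.03 and 7.32 FPKM. Nr1d1, which encodes the repressor REV-ERB alpha, stood at 66.3, 53.1 and 82.8 FPKM against 27.7, 15.6 and 27.5 FPKM. The groups were separate in all 3 genes. Arntl, the activator that peaks at the opposite time, stood at 0.62, 1.00 and 1.11 FPKM in EXO and 0.78, 0.55 and 1.21 FPKM in BLM, and Cry1 at 2.61, 1.61 and 3.61 FPKM against 2.76, 1.21 and 3.37 FPKM, both overlapping. After median-ratio scaling 13 of the 15 lay higher, with a median of 0.87, and Arntl and Cry1 then lay at -0.07 and -0.10. The time of day of sampling is not in the labels, and its part in these values was not tested.

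Transcripts of the fibrotic matrix were split in direction. Of 23 collagen genes tested, 10 lay higher and 13 lower, against 30.4% of all genes tested that lay lower. Their median was -0.25, against 0.23 for all genes tested, and it was -0.50 after median-ratio scaling. It turned above 0 after rescaling to the same total and without BLM3. Col1a1, which encodes a chain of type I collagen, stood at 19.8, 24.1 and 10.3 FPKM in EXO1 to EXO3 and at 22.7, 28.8 and 157 FPKM in BLM1 to BLM3. Col1a2 stood at 8.56, 15.1 and 5.93 FPKM against 8.84, 13.0 and 50.1 FPKM, so that BLM3 alone stood apart (limma, adjusted p = 0.70 and 0.793). At the study's thresholds 4 collagens passed as higher (3.23% of all genes tested) and 2 as lower (2.29% of all). After median-ratio scaling 4 passed as higher (1.82% of all) and 4 as lower (3.46% of all). The 4 higher before that scaling were Col4a6, Col8a2, Col7a1, the anchoring fibril collagen, and Col17a1, the hemidesmosome collagen. Col17a1 stood at 184, 269 and 434 FPKM in EXO and 124, 44.3 and 117 FPKM in BLM. Col15a1, a collagen next to vessels and muscle, passed as lower beside Col4a1, at 3.32, 3.50 and 1.99 FPKM against 6.41, 7.75 and 19.8 FPKM. Vcan, the proteoglycan versican of dermal papilla and loose matrix, stood at 0.21, 0.34 and 0.27 FPKM in EXO and 3.11, 1.22 and 3.51 FPKM in BLM, and it had passed the filter only through BLM, so that it had to lie lower. In the list of other matrix genes that holds it, 43 were tested. Of these, 5 passed the study's thresholds as higher (3.23% of all genes tested) and 1, Vcan, as lower (2.29% of all). After median-ratio scaling 3 passed as higher (1.82% of all) and 2 as lower (3.46% of all).

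Of 17 tested myofibroblast and smooth muscle genes, 8 lay higher and 9 lower, against 30.4% of all genes tested that lay lower. The median was -0.37, and -0.11, -0.15 and -0.86 in pairs 1, 2 and 3. It was -0.53 after median-ratio scaling, with 12 lower, and it turned above 0 with a filter at 5 FPKM. The study's thresholds were passed by 2 as lower (2.29% of all genes tested) and 0 as higher. After median-ratio scaling 4 passed as lower (3.46% of all) and 0 as higher. Acta2, the smooth muscle actin of myofibroblasts, stood at 10.3, 16.4 and 6.19 FPKM in EXO and 18.98, 37.97 and 47.56 FPKM in BLM. The groups did not overlap, and Acta2 did not pass over all genes (log2 difference -1.58, SE 0.68, limma, adjusted p = 0.661). Tagln, another contractile protein, stood at 7.87, 17.8 and 4.64 FPKM against 16.9, 29.4 and 42.6 FPKM, with EXO2 above BLM1. Tgfb1, the fibrotic cytokine, stood at 4.07, 5.16 and 4.83 FPKM against 3.81, 3.26 and 5.58 FPKM and Fn1 at 2.18, 4.03 and 1.55 FPKM against 2.39, 5.30 and 1.38 FPKM, both in overlapping ranges. The genes Il6, Il10, Tnf, Cd4 and Cd8a, which other assays of the study had followed, did not reach the filter and were not tested.

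The signalling lists were mixed. In the TGF-beta and BMP list 23 of 33 lay higher with a median of 0.28, near that of all genes. At the study's thresholds 5 members passed as higher (3.23% of all genes tested) and 0 as lower (2.29%). After median-ratio scaling 4 passed as higher (1.82% of all) and 0 as lower. Ltbp2, a latent TGF-beta binding protein family member, stood at 5.08, 4.08 and 9.89 FPKM in EXO and 1.19, 0.90 and 1.92 FPKM in BLM. In the Wnt list 32 of 53 lay higher with a median of 0.06, which was -0.13 after median-ratio scaling. At the study's thresholds 5 members passed as lower (2.29% of all genes tested) and 2, Lgr6 and Wnt3a, as higher (3.23% of all). The lower ones included Wnt5a, a ligand of the dermal papilla, at 0.64, 1.01 and 0.41 FPKM in EXO and 7.43, 2.31 and 4.39 FPKM in BLM, and Rspo1, a Wnt enhancer, at 0.97, 2.85 and 2.02 FPKM against 7.00, 4.21 and 10.8 FPKM. Both had separate groups, and neither passed over all genes (limma, adjusted p = 0.214 and 0.374). After median-ratio scaling 6 Wnt members passed the thresholds as lower (3.46% of all) and 3 as higher (1.82% of all). In the Hippo and YAP list 19 of 22 lay higher with a median of 0.44. Ccn2, a YAP target and matricellular protein, stood at 21.0, 21.1 and 96.5 FPKM in EXO and 5.88, 5.37 and 8.17 FPKM in BLM (log2 difference 2.29, SE 0.60, adjusted p = 0.296).

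Metallothioneins, which bind zinc and copper and follow metal and oxidative stress, lay lower. Mt1 stood at 111, 151 and 76.1 FPKM in EXO1 to EXO3 and at 533, 215 and 520 FPKM in BLM1 to BLM3. Mt2 stood at 276, 402 and 293 FPKM against 1960, 797 and 2023 FPKM (log2 difference -2.20, SE 0.47, limma, adjusted p = 0.188). In both the groups were separate and BLM2 was nearest to EXO. Prdx1, a peroxiredoxin, stood at 101, 57.8 and 125 FPKM in EXO and 34.5, 31.9 and 43.6 FPKM in BLM, and 18 of 24 list members lay higher, near the 69.6% of all genes tested. The study's thresholds were passed by 4 members as higher (3.23% of all genes tested) and 2 as lower (2.29% of all). After median-ratio scaling 0 passed as higher (1.82% of all) and 3 as lower (3.46% of all). The list median was 0.44, and 0.16 after that scaling.

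Energy genes are to be read beside the makeup of the libraries. All 13 mitochondrially encoded protein genes lay lower, with a median of -1.06, and mt-Co1, a subunit of complex IV, stood at 17148, 37859 and 20934 FPKM in EXO1 to EXO3 against 38069, 77182 and 33725 FPKM in BLM1 to BLM3, where EXO2 reached the range of BLM. Nuclear genes of respiration lay higher in 39 of 39 tested and glycolysis genes in 20 of 21, with medians of 0.64 and 0.84. Skeletal muscle fibre genes lay higher in 31 of 33, with a median of 0.99, and 0 passed the study's thresholds. Acta1, the skeletal actin, stood at 15326, 2647 and 3402 FPKM in EXO and 3571, 2585 and 1691 FPKM in BLM, so EXO1 alone stood apart. The muscle medians of pairs 1, 2 and 3 were 1.94, -0.14 and 1.14, and those of respiration 1.21, 0.52 and 0.28. The muscle marker list and the respiration list were both highest in the pair with EXO1, the library with 13.1% muscle transcripts, and the part of muscle in the respiration values was not tested.

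**Figure D4:**
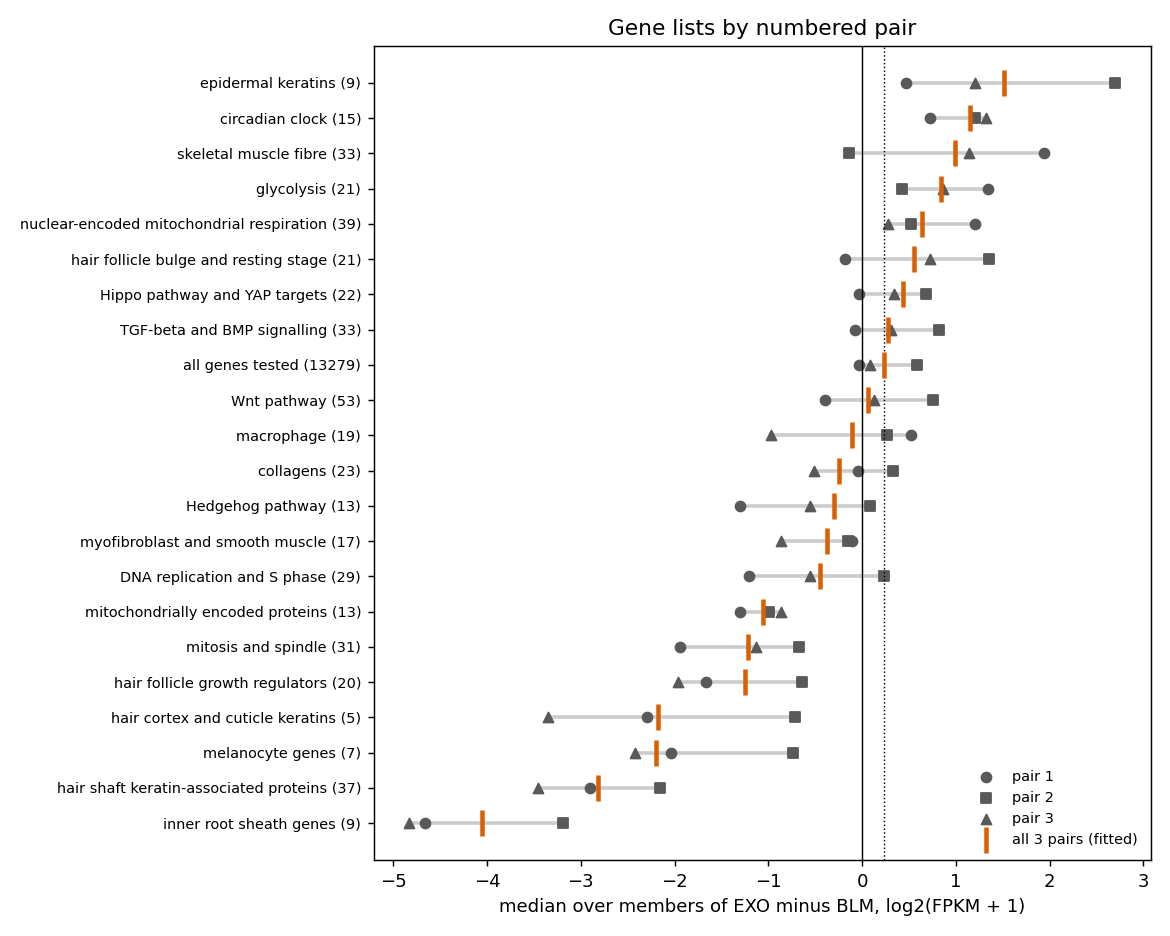
Median log2 difference, EXO minus BLM, over the tested members of each list (number tested in brackets), for each numbered pair of libraries (points) and for the fit of all libraries (orange bar). The dotted line is the median of all genes tested, 0.23. The inner root sheath, shaft, pigment, growth regulator and mitosis lists lie below 0 in all 3 pairs. So do the cortex and cuticle, mitochondrially encoded and myofibroblast lists. The clock, respiration, glycolysis and epidermal keratin lists lie above 0. In the shaft list 32 of 37 members passed the filter only through BLM, which fixed the side of its medians.

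At the study's thresholds 429 genes lay higher and 304 lower, of which 59 and 102 were in a list. Of the 304, 104 had passed the filter only through BLM, and of the 429, 30 only through EXO. Without regard to thresholds, 1547 genes were higher without overlap, 97 of them filtered in through EXO only, and 329 were lower without overlap, 121 of them through BLM only. An unadjusted p below 0.05 was found for 948 genes (7.14%).

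The balance of directions turned with the scaling. After median-ratio scaling 242 genes (1.82%) passed the thresholds as higher and 460 (3.46%) as lower, and groups did not overlap for 1154 higher (8.69%) and 1385 lower (10.4%). After quantile normalization the counts were 283 and 471, and after rescaling to the same total 626 and 189. They were 208 higher and 433 lower without BLM2, 253 and 313 without EXO3, 247 and 382 without the libraries numbered 2, 619 and 121 without BLM3, and 450 and 130 without BLM1. Lower medians of the shaft, root sheath, growth regulator, pigment and mitosis lists kept their sign in each of these settings, as did the higher medians of the bulge, epidermal keratin and clock lists. Of the shaft members 32 of 37 had passed the filter only through BLM, and of the growth regulators 6 of 20. In the root sheath, pigment and mitosis lists 1 member each had. The filter fixed the direction of these members, so the kept sign of the shaft list gives no support for a direction. Without a BLM library these members no longer reached the filter, and the medians covered fewer genes.

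The count of adjusted calls also depended on the libraries fitted. With the 6 EXO and BLM libraries alone, 97 genes were called, 6 higher (0.0452%) and 91 lower (0.685%), and 102 without NORMAL3. Of the 91, 50 were in a list, 33 of them keratin-associated proteins, and 64 of the 91 had passed the filter only through BLM. The 3 calls of the 9-library fit were among the 97. The 6 higher were Atp2b4, Fcgbp, Fgf18, Pcmtd2, Rin1 and Wfdc3. With the title number as a block, the same 6 libraries gave 599 calls, 319 higher and 280 lower, so the balance of directions also depended on the block. Quantile normalization called 7 higher (0.0527%) and 74 lower (0.557%), and median-ratio scaling 6 higher (0.0452%) and 60 lower (0.452%).

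**Figure D5:**
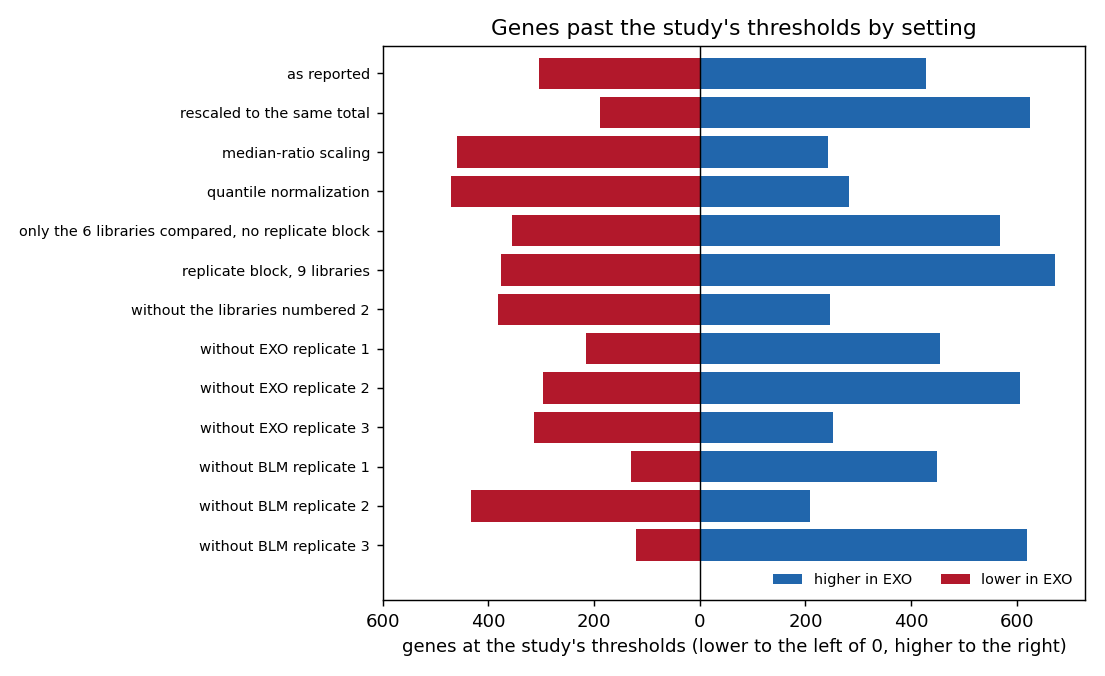
Number of genes at the study's thresholds that lay higher (blue, right) or lower (red, left) in EXO, by scaling, by fit and without single libraries. As reported 429 lay higher and 304 lower, and the larger side changes after median-ratio scaling, after quantile normalization and without BLM2, EXO3 or the libraries numbered 2.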

How the data were processed

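Poly(A) RNA libraries, strand-specific by dUTP, were sequenced in pairs. FPKM values are the authors' own, deposited as 1 table. Per the submitters' processing notes, cutadapt, HISAT2 2.0.4 and StringTie 1.3.4d were used with mm9, while coordinates here are from GRCm38. No source names the annotation release or a filter. FPKM shares 1 total per library, so a class taking a larger share lowers the rest. Without counts, depth is unknown and no count model was run.

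Libraries were grouped by their titles. Values as log2(FPKM + 1) were fitted in R 4.3.3 by limma 3.58.1, using its trend option, on all 9 libraries for 13279 genes, with Benjamini-Hochberg adjustment at 0.05, and tested on simulated data. After removal of group means, same-numbered EXO and BLM libraries had correlations of 0.136, 0.379 and 0.454, and others -0.47 to 0.128. The lowest of the first lay near the highest of the others, and no label states what the numbers mark. Whether they pair the libraries is therefore not settled, and the title numbers were also fitted as a block. Settings tried were 4 scalings, pseudocount 0.1, 2 filters, variance models, fewer libraries and the block. Blocks with quantile normalization and with rescaling were chosen after seeing the data. Members and lists were chosen with earlier results of these data known. Genes were named if called in either 9-library fit, if among the 12 largest differences each way with separate groups, all pairs of 1 sign and a mean of 5 FPKM in the higher group, if among the 3 highest in FPKM or the 3 smallest in p of a list, or if assayed in the study. Arntl, Bub3, Cenpe, Col4a1, Col4a6, Col8a2, Cry1, Cry2, Hlf, Pcmtd2, Lgr6, Per3, Rin1, Sprr1a, Tchh, Wnt3a and the keratin-associated proteins with 1 FPKM in EXO were named after their values were seen. Some genes that met the rule are not reported here.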

Additional observations from a re-analysis of the deposited data

How the results depend on the processing

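limma called 0 genes with pseudocount 0.1, with no filter, with a filter at 5 FPKM and without the libraries numbered 2, where 873, 1877, 449 and 721 had an unadjusted p below 0.05. It called 81 after quantile normalization, 66 after median-ratio scaling and 97 with the 6 libraries alone. With the replicate block it called 19 on 9 libraries, 599 on 6 libraries, 107 with quantile normalization and 9 with rescaling without mitochondrial, ribosomal and muscle transcripts, the last 2 chosen after seeing the data. Leaving out single libraries gave 0 to 102 calls. They were 0 without EXO1, EXO2, EXO3, BLM1 or BLM3, with 709, 940, 601, 635 and 829 genes at an unadjusted p below 0.05, and 102 without NORMAL3. At the study's thresholds the 733 genes became 367 with the filter at 5 FPKM, 1233 with the block on 6 libraries, 1176 with the block and rescaling, and 566 to 903 without single libraries. The direction of Shh, Krtap19-4 and Krtap19-1 was the same in each alternative that tested them. These genes had passed the filter only through BLM, which fixed that direction, so its constancy gives no support for it. The cause of these changes was not tested. Without counts, the depth behind a low FPKM is unknown, and 3 libraries a group limit every test.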

Other observations

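Among immune cell lists, that of macrophages gave little difference between EXO and BLM. In others few members were tested, 6 of 18 for T and NK cells and 7 of 15 for mast cells. For B and plasma cells 2 of 10 were tested, and for neutrophils 1 of 11. At the study's thresholds 1 mast cell gene passed as higher (3.23% of all genes tested) and the 1 neutrophil gene as lower (2.29%). Of 19 macrophage genes tested, 8 lay higher and 0 passed the study's thresholds in either direction. C1qa, a complement subunit made by macrophages, stood at 46.5, 143 and 15.8 FPKM in EXO1 to EXO3 and at 29.4, 131 and 41.6 FPKM in BLM1 to BLM3, so that the libraries numbered 2 were the highest of both groups. Among cytokines, 24 of 41 were tested, and 3 passed as higher (3.23% of all genes tested) and 0 as lower (2.29% of all). Il33, an alarmin of keratinocytes, stood at 10.1, 23.2 and 21.0 FPKM in EXO and 4.93, 5.22 and 2.69 FPKM in BLM (log2 difference 1.81, limma, adjusted p = 0.249). Il34, a ligand of the CSF1 receptor, stood at 20.3, 28.9 and 28.0 FPKM against 9.85, 2.42 and 12.5 FPKM. In both the groups did not overlap.

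Plasma protein genes of the liver were high in EXO2 and BLM2, and also in NORMAL2. The list summed to 653, 1028 and 3883 FPKM in EXO2, BLM2 and NORMAL2, and to 22.5 to 114 FPKM in the other libraries. What these libraries share beside their number was not tested. Rbp4, the retinol carrier, stood at 1.65, 375 and 2.08 FPKM in EXO1 to EXO3 and at 1.98, 653 and 5.23 FPKM in BLM1 to BLM3. Hpx, which encodes hemopexin, stood at 0.46, 103 and 0.32 FPKM in EXO and 0.79, 182 and 1.00 FPKM in BLM, with 0.28, 597 and 1.04 FPKM in NORMAL.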
